A study of Saccharomyces cerevisiae with 12 samples.

Results

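Late nitrogen starvation was compared with late carbon starvation at matched times on 6 of the 12 arrays of the series, which were chosen by their labels: nitrogen starvation at 2, 4 and 8 h and carbon starvation at 2, 4 and 8 h, 3 arrays against 3. The cells were Saccharomyces cerevisiae FY4, a haploid MATa strain of the S288C background that carries no nutritional marker. They were grown on filters in minimal medium with glucose and ammonium, and the filters were then moved to plates without glucose (carbon starvation, ammonium still present) or without ammonium (nitrogen starvation, glucose still present). Transcripts were measured on 2-colour arrays, with poly(A)+ RNA of starved cells in the red channel (Cy5) and that of the exponentially growing culture before the switch in the green channel (Cy3). The comparison asks which transcripts answer to the nutrient that was removed and which to starvation at large.

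Budding yeast takes up ammonium and glutamine by preference, and nitrogen catabolite repression keeps the genes for poorer sources (proline, arginine, urea, allantoin) low until these run out, through the GATA factors Gln3, Gat1, Dal80 and Gzf3. Glucose acts in a like way on carbon: while it lasts, repressors such as Mig1 and Mig2 hold down respiration, gluconeogenesis and the use of acetate, ethanol and fatty acids, and its removal releases them through Snf1, Adr1 and Cat8. Both starvations slow growth, and the transcripts of ribosomes and their assembly are known to fall in each.

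Values are log2 ratios of starved over pre-starvation signal, with each array centred on its median, and are listed in the order 2, 4 and 8 h. A difference is nitrogen minus carbon, so that a positive difference means a higher level in nitrogen starvation, and it is given with its standard error (SE). It was tested with limma, with the time point as a block, and a gene is called at an adjusted p under 0.05. Genes were named by a rule on size, and members of a list given beyond that rule, such as FOX2 or CAT8, were chosen after their values were seen. Each starvation has 1 array at each time, and no label says that the cultures were grown separately. With time as a block, the p-values measure how the difference varies over the 3 time pairs, not a spread between separate cultures. Between 84.8 and 93.4% of the spots had a red signal well above background on these arrays, and between 84.8 and 87.8% a green one. Repeat spots of a probe spread by 0.155 to 0.264 (SD of the log2 ratio). The ratio is relative to the median transcript of the same array, and with bulk RNA fewer cells holding a transcript and less of it per cell cannot be told apart. Dyes were not swapped. The study names the culture before the switch as the reference, without saying that 1 RNA pool served both starvations. A shared pool cancels in the difference, apart from its own measurement error, and separate pools would not. As a check of the strain, the red signal of 7 MATa genes was above background on 2 or 3 arrays of each starvation, whereas MF(ALPHA)1 and MF(ALPHA)2, which encode the pheromone of the other mating type, were too dim to be tested. STE3 and SAG1, known as genes of that other mating type, were above background on all 6 arrays, with differences of -0.48 and -0.68 that did not pass the test.

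Of 5689 genes tested, 1911 (33.6%) differed between the starvations (limma, adjusted p under 0.05): 986 (17.3%) were higher in nitrogen starvation and 925 (16.3%) in carbon starvation. The median size of the difference was 1.30 in the called genes and 0.60 in all genes tested, and 421 of the called genes differed by 2 or more. The sign was the same at 3 of 3 times in 1909 of the 1911. In 1769 of them the 3 nitrogen values and the 3 carbon values did not overlap, and this was so in 47.6% of all genes tested. The split between directions depends on the scaling: with equal red and green totals on each array, the median difference of all genes moved from -0.06 to 0.24, and 71.1% of the called genes, in place of 51.6%, were higher in nitrogen starvation. The number of calls fell whenever arrays were left out. It was 1258 without the 4 h pair, 1669 without the 2 h pair and 1557 without the 8 h pair. With no time block 1768 genes were called, 807 without nitrogen starvation at 4 h and 1261 to 1527 with any other single array left out. List counts in other settings are to be read against the counts over all genes. Without nitrogen starvation at 4 h, 455 genes were higher in nitrogen and 352 in carbon starvation. With equal totals the numbers were 1403 and 569, and without the 2 h pair 914 and 755.

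**Figure D1:**
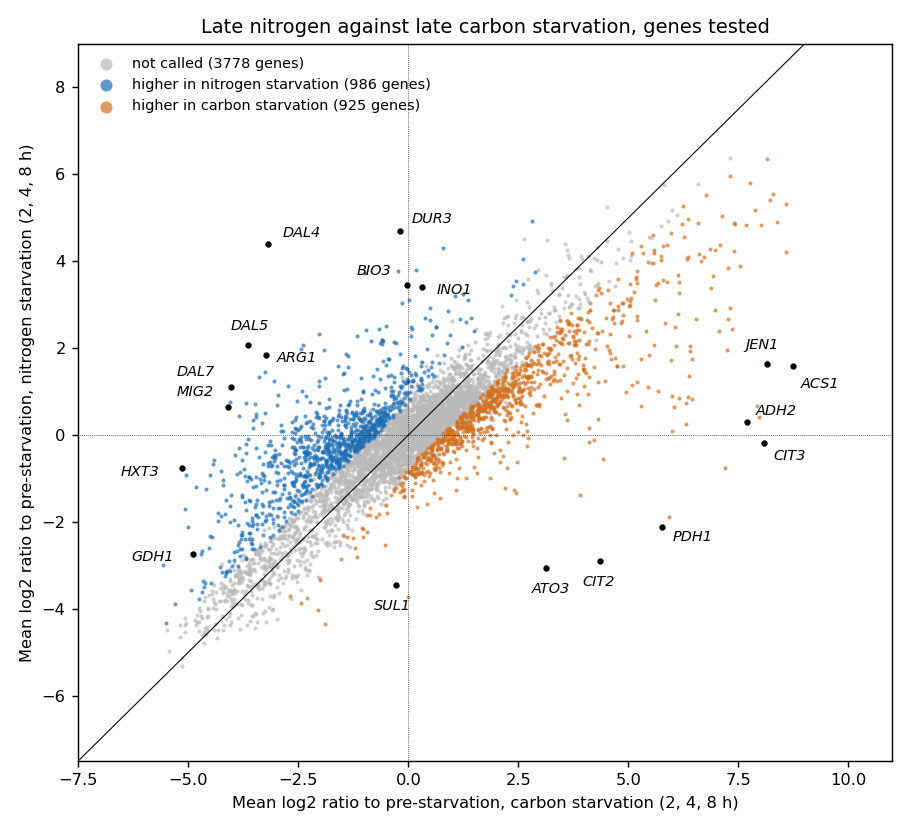
Mean log2 ratio to pre-starvation over 2, 4 and 8 h in carbon starvation (horizontal axis) and nitrogen starvation (vertical axis), 1 point per gene tested; blue and orange mark the 986 genes higher in nitrogen and the 925 higher in carbon starvation, grey the genes not called, and the line marks equal means. DAL4 and DAL5 lie in the upper left, and PDH1, CIT2 and ATO3 in the lower right.

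To describe how specific each response was, called genes were sorted by their ratios, with no further test. A gene was placed under 1 starvation alone if its ratio was past 1 in size, in 1 direction, at all 3 times of that starvation and stayed within 1 at all 3 times of the other. By this rule 519 called genes (27.2%) belonged to 1 starvation alone. Carbon starvation held 469 of these, 285 lowered and 184 raised, and nitrogen starvation held 50, of which 39 were raised and 11 lowered. A further 291 called genes were raised past 1 in both starvations, and 282 of these were higher in carbon starvation, with a median ratio of 3.80 against 2.12. Of 153 genes lowered past 1 in both, 145 were lower in carbon starvation, with a median of -3.49 against -1.94. The SD of the ratios over genes was 1.97 to 2.20 on the carbon arrays and 1.41 to 1.74 on the nitrogen arrays. Only 13 called genes went past 1 in opposite directions at all times, 8 raised in nitrogen and lowered in carbon starvation and 5 the other way.

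The 8 genes raised in nitrogen and lowered in carbon starvation were DAL4, DAL5, DUR1,2, DAL80, GAP1, YGK3, VHT1 and YKR033C, of which YGK3 and VHT1 fall outside the naming rule and were chosen after their values were seen. YKR033C entered the test through nitrogen starvation alone, and its lowered ratios in carbon starvation come from signal not well above background. Allantoin is a storage form of nitrogen in plants that yeast breaks down to urea and then to ammonium, and 8 of its 10 genes tested were higher in nitrogen starvation and 0 in carbon starvation, where 17.3% and 16.3% of all genes were. The median difference of the list was 4.62. DAL4, the allantoin permease, had ratios of 4.82, 4.50 and 3.86 in nitrogen starvation and -3.54, -2.65 and -3.35 in carbon starvation. All 3 nitrogen arrays were far above the pre-starvation level and all 3 carbon arrays far below it, a difference of 7.58 (SE 0.31, limma adjusted p = 4.64e-05), or 191-fold. DAL5, which imports allantoate, had 2.73, 1.89 and 1.60 against -3.83, -4.07 and -3.01 (difference 5.71, SE 0.38, limma adjusted p = 0.000173).

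Among the enzymes of the pathway, DAL7, a malate synthase that disposes of the glyoxylate released, had ratios of 1.49, 1.22 and 0.60 in nitrogen starvation and -4.03, -4.10 and -3.97 in carbon starvation (difference 5.13, SE 0.28). DAL1, the allantoinase that opens the ring, differed by 4.81 in the same way, whereas DAL2 and DAL3, which act after it, differed by 1.63 and 1.89. DAL7 was thus above the pre-starvation level without ammonium, least at 8 h, and far below it without glucose. DUR3, the urea transporter, behaved otherwise: it had 4.84, 4.79 and 4.49 in nitrogen starvation and -0.06, -0.34 and -0.14 in carbon starvation (difference 4.89, SE 0.24, limma adjusted p = 8.18e-05), the largest difference among the 39 genes raised in nitrogen starvation alone. DUR1,2, which splits urea into ammonium and carbon dioxide, had 1.69, 1.83 and 2.41 against -2.77, -2.77 and -1.81, below the pre-starvation level on every carbon array. The activators DAL81 and DAL82 differed by 0.20 and 0.23 and did not pass the test. DAL1, DAL4, DAL2, DCG1, DAL7 and DAL3 lie next to each other on chromosome IX, and all 6 were called higher in nitrogen starvation.

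Of the GATA factors, DAL80, which represses the same genes it is induced with, had ratios of 2.41, 2.24 and 2.33 in nitrogen starvation and -1.95, -2.27 and -1.85 in carbon starvation (difference 4.36, SE 0.24, limma adjusted p = 8.69e-05). The arrays of each starvation lay close together, and the groups were far apart. GAT1, an activator, was lowered in carbon starvation (-1.36, -1.15 and -1.41) and had -0.42, -0.11 and 0.76 in nitrogen starvation (difference 1.38, SE 0.31). GLN3, the other activator, was higher in carbon starvation by a smaller difference (-0.97, SE 0.26, limma adjusted p = 0.0282), which lost its call with equal totals. Both GAT1 and GLN3 lost their calls without the 8 h pair, without carbon starvation at 2 or 8 h and without nitrogen starvation at 4 h, and GLN3 also without the 2 h pair and without nitrogen starvation at 2 h. GZF3 and URE2, whose product holds Gln3 in the cytoplasm, did not pass the test (0.52 and -0.48). YKR033C is a reading frame opposite DAL80, and its red signal was not well above background on the 3 carbon arrays. For such genes the fold is given as a lower bound, the smaller of the fold of the ratios and the fold of the red channel alone, in which the dim starvation's level on each array is the higher of the probe's own signal and the dimmest signal well above background. YKR033C was at least 9.09-fold higher in nitrogen starvation. These bounds hold for the main processing only, and over the alternative settings the difference of YKR033C went down to 0.92.

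MEP2, the permease of highest affinity among the 3 for ammonium, had ratios of 0.30, 0.41 and 0.58 in nitrogen starvation and -3.39, -4.51 and -3.67 in carbon starvation (difference 4.29, SE 0.30, limma adjusted p = 0.000198). It was therefore near the pre-starvation level without ammonium and far below it without glucose. MEP3 showed the same order at a smaller size (-0.55, -0.83 and -0.68 against -2.76, -2.38 and -2.65, difference 1.91). MEP1 gave overlapping groups, with -0.81, 0.31 and 1.21 in nitrogen and 1.02, 0.22 and -0.16 in carbon starvation, and did not pass the test (-0.12, SE 0.54).

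The list of amino acid permeases, which also holds the peptide transporters OPT2 and PTR2, went both ways. Of 18 tested, 5 were higher in nitrogen and 6 in carbon starvation (27.8% and 33.3%, against 17.3% and 16.3% of all genes). The median difference was -0.50. GAP1, the general amino acid permease, had 1.54, 1.58 and 2.72 in nitrogen starvation and -1.83, -1.96 and -1.98 in carbon starvation (difference 3.87, SE 0.32, limma adjusted p = 0.000401), and its spot was saturated on 2 arrays. OPT2, an oligopeptide transporter, was not well above background on any carbon array and was at least 24.1-fold higher in nitrogen starvation, with ratios of 4.11, 2.88 and 4.17 there. Its reference signal was well above background on 1 of 6 arrays, and its difference went down to 1.67 over the alternative settings. PTR2, which imports di- and tripeptides, had 1.17, 1.04 and 0.93 against -2.33, -1.92 and -0.13, where the carbon array at 8 h was the closest to the nitrogen arrays. Higher in carbon starvation were MMP1, which imports S-methylmethionine (-3.41), AGP3 (-3.19), ALP1 (-2.41) and the methionine permease MUP1 (-1.85). MUP1, which was lowered in nitrogen starvation alone, lost its call without carbon starvation at 2 h, PTR2 without carbon starvation at 4 h, and both without nitrogen starvation at 4 h. Without that last array, and with no time block, 2 permeases were higher in nitrogen and 4 in carbon starvation, and without carbon starvation at 4 h the numbers were 3 and 6.

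**Figure D2:**
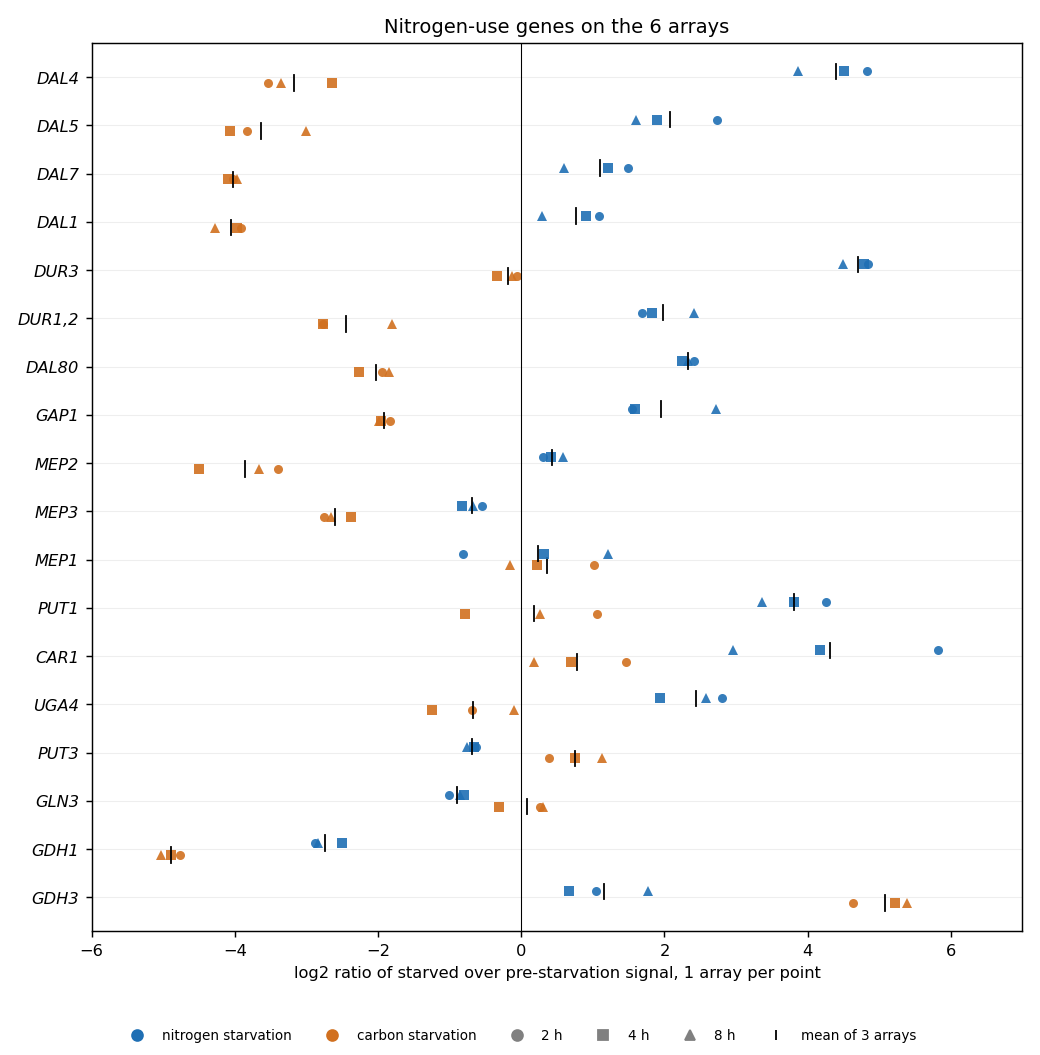
Log2 ratio of starved over pre-starvation signal (horizontal axis) of 18 nitrogen-use genes, 1 point per array; blue is nitrogen and orange carbon starvation, circles, squares and triangles are 2, 4 and 8 h, and black ticks are means of 3 arrays. The DAL and DUR genes, DAL80, GAP1 and MEP2 show blue and orange points wide apart with blue to the right, MEP1 shows them mixed, and PUT3, GLN3 and GDH3 show orange to the right.

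Of 10 genes that break down proline, arginine and gamma-aminobutyric acid (GABA), 6 were higher in nitrogen and 1 in carbon starvation. The shares were 60% and 10%, against 17.3% and 16.3% of all genes, and the median difference was 0.91. CAR1, the arginase, had ratios of 5.82, 4.17 and 2.95 in nitrogen starvation and 1.46, 0.70 and 0.18 in carbon starvation (difference 3.53, SE 0.34, limma adjusted p = 0.000633). PUT1, proline oxidase, had 4.26, 3.81 and 3.36 against 1.05, -0.79 and 0.26 (difference 3.63, SE 0.35). UGA4, the GABA permease, had 2.81, 1.94 and 2.59 against -0.68, -1.25 and -0.10 (difference 3.12, SE 0.26). In all 3 genes every nitrogen array was above every carbon array. CAR2, the next enzyme of arginine breakdown, was raised in both starvations (5.78, 4.30 and 3.47 against 1.93, 2.19 and 3.77) and did not pass the test (1.89, SE 0.68). Its groups overlap, with carbon above nitrogen starvation at 8 h. PUT3, the activator of the proline genes, was the 1 member higher in carbon starvation (-1.44, SE 0.27, limma adjusted p = 0.00727). Without the 2 h pair, 3 of these genes were called higher in nitrogen starvation, and so it was without nitrogen starvation at 2 h or at 4 h.

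Ammonium enters amino acids through glutamate and glutamine. GDH1, the glutamate dehydrogenase that assimilates ammonium, was lowered in both starvations, with -2.88, -2.50 and -2.84 in nitrogen and -4.77, -4.89 and -5.04 in carbon starvation (difference 2.16, SE 0.24, limma adjusted p = 0.00108). Its paralog GDH3 had the opposite order, with 1.04, 0.66 and 1.77 in nitrogen and 4.63, 5.22 and 5.39 in carbon starvation (difference -3.92, SE 0.29, limma adjusted p = 0.000243). GDH2, which breaks glutamate down, was likewise higher in carbon starvation (-2.27, SE 0.31). GLN1, glutamine synthetase, was higher in nitrogen starvation (1.38, SE 0.35), but its call was lost with normexp and loess, without the 4 h or the 8 h pair, and without any single array but carbon starvation at 2 h. GLT1, glutamate synthase, did not pass the test (0.18).

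The vacuole degrades protein and organelles in starved cells. APE1, a vacuolar aminopeptidase that reaches the vacuole with autophagic cargo, was raised in nitrogen starvation alone, with 3.57, 2.69 and 2.86 against 0.09, -0.11 and -0.43 (difference 3.19, SE 0.26, limma adjusted p = 0.000364). PRB1 (proteinase B) and CPS1 (carboxypeptidase S) were also higher in nitrogen starvation, by 2.01 and 2.89, while PRC1 (carboxypeptidase Y) and APE3 were higher in carbon starvation, by -1.28 and -1.12. PAI3, an inhibitor of the vacuolar proteinase A, was higher in carbon starvation by -1.32, a call lost without the time block. PRC1 lost its call without nitrogen starvation at 4 h and APE3 without the 2 h pair. Of 20 core autophagy genes 5 were called, all higher in carbon starvation, where 16.3% of all genes were, with a median difference of -0.45, and ATG8, which coats the autophagosome membrane, had 4.17, 3.51 and 4.39 in nitrogen and 3.92, 4.57 and 4.39 in carbon starvation. ATG9, a membrane protein of the same process, differed by -1.26 (SE 0.24, limma adjusted p = 0.00778). The number called was 2 without nitrogen starvation at 4 h and 3 without nitrogen starvation at 8 h or the 8 h pair.

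On the carbon side, the largest fitted difference of all genes tested belonged to CIT3. This mitochondrial citrate and methylcitrate synthase had ratios of 7.23, 9.17 and 7.87 in carbon starvation and -0.37, -0.09 and -0.13 in nitrogen starvation (difference -8.28, SE 0.35, limma adjusted p = 4.64e-05), or 311-fold. The nitrogen arrays stayed at the pre-starvation level, and the reference signal of CIT3 was well above background on 4 of 6 arrays. PDH1, the next gene on chromosome XVI, which is tied to propionate use, had 5.85, 6.25 and 5.20 against -2.42, -1.91 and -2.01 (difference -7.88, SE 0.29, limma adjusted p = 4.64e-05). It was 1 of the 5 genes raised in carbon and lowered in nitrogen starvation.

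CIT2, the peroxisomal citrate synthase, also belongs to those 5, with 5.51, 4.35 and 3.22 in carbon starvation and -3.26, -2.62 and -2.82 in nitrogen starvation (difference -7.26, SE 0.48). The others are YIG1 (5.30, 6.67 and 5.76 against -1.79, -1.95 and -1.95), the putative ammonium exporter ATO3 (2.90, 2.72 and 3.77 against -3.95, -2.36 and -2.87) and PHO89, a sodium-coupled phosphate transporter, which falls outside the naming rule and was chosen after its values were seen (3.45, 3.84 and 4.42 against -1.22, -1.38 and -1.54). The differences of YIG1, ATO3 and PHO89 were -7.81, -6.19 and -5.29. In each of these genes all carbon arrays were above 2 and all nitrogen arrays below -1.

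The genes of gluconeogenesis and the glyoxylate cycle, which build sugar from acetate and ethanol, were higher in carbon starvation in 13 of 14 cases, where 16.3% of all genes were, with a median difference of -3.72. ACS1, acetyl-CoA synthetase, had 7.77, 9.46 and 9.02 in carbon starvation and 0.95, 1.68 and 2.14 in nitrogen starvation (difference -7.16, SE 0.28, limma adjusted p = 4.64e-05). JEN1, the lactate permease, had 6.84, 9.08 and 8.51 against 1.15, 2.00 and 1.77 (difference -6.50, SE 0.32), with the reference signal well above background on 4 of 6 arrays. ICL1, isocitrate lyase, which opens the glyoxylate cycle, had 6.42, 6.90 and 5.15 against 0.47, 0.60 and 1.51 (difference -5.30, SE 0.50). In all 3 genes the nitrogen arrays were at or above the pre-starvation level and far below the carbon arrays.

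Some members had higher ratios in nitrogen starvation as well. FBP1, fructose-1,6-bisphosphatase, had 6.15, 9.17 and 6.74 in carbon starvation and 0.77, 2.06 and 4.48 in nitrogen starvation (difference -4.92, SE 0.79), and it lost its call without nitrogen starvation at 4 h. MDH2, the cytosolic malate dehydrogenase, had 4.82, 6.22 and 5.26 against 3.90, 3.50 and 4.52, a difference of -1.46 at groups that nearly meet. The activators CAT8 (5.33, 5.38 and 5.48 against 2.46, 2.41 and 2.32) and SIP4 (4.35, 4.26 and 4.31 against 1.10, 1.40 and 1.17) had nearly constant ratios over time within each starvation. VID24, which takes part in the breakdown of gluconeogenic enzymes when glucose returns, was the 1 member higher in nitrogen starvation (0.62, 0.75 and 0.59 against -0.21, -0.79 and -0.56, difference 1.18, SE 0.26), but lost its call without the 4 h pair and without nitrogen starvation at 4 h.

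Peroxisomal beta-oxidation breaks fatty acids down to acetyl units. Of the 18 genes tested in its list, which also holds CIT2, 16 were higher in carbon starvation (88.9%, against 16.3% of all genes). In nitrogen starvation 0 were higher, and the median difference was -3.80. CTA1, peroxisomal catalase, had 6.55, 8.98 and 8.22 in carbon starvation and -0.50, 0.27 and 2.26 in nitrogen starvation (difference -7.24, SE 0.48, limma adjusted p = 0.000172). FOX2, which carries out the middle steps, had 5.83, 6.72 and 6.55 against 0.79, 1.30 and 1.97 (difference -5.02, SE 0.26). PXA1, a subunit of the fatty acid importer of the peroxisome, had 5.61, 6.07 and 6.28 against 1.14, 1.01 and 0.54 (difference -5.09, SE 0.30). ANT1 and OAF1 did not pass the test (0.35 and -0.05), and OAF1 encodes a regulator of this pathway. The 4 genes of the carnitine shuttle, which carries acetyl groups into mitochondria, were all higher in carbon starvation. Among them YAT1 had 5.78, 7.06 and 6.06 against -0.05, 0.36 and 0.46 (difference -6.04, SE 0.29), the nitrogen arrays staying at the pre-starvation level.

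For 10 genes higher in carbon starvation the red signal was not well above background on the 3 nitrogen arrays. Only a lower bound of the fold, for the main processing, can be given for them. Such genes entered the test through the starvation in which they were high. RGI2, which is linked to energy metabolism in respiring cells, had ratios of 5.68, 8.19 and 7.69 in carbon starvation and was at least 248-fold higher there. Its reference signal was well above background on 3 of 6 arrays. For this gene the red channel alone gave 3830-fold, so the measures lie far apart. The smallest difference of RGI2 over the alternative settings was -6.435. FDH1, a formate dehydrogenase, was at least 49.0-fold higher, and FDH2 and YPL276W, pieces of a near-identical copy that could share its signal, were at least 47.9-fold and 44.7-fold higher. In the other direction 17 genes were not well above background on any carbon array, among them YGR190C (at least 15.9-fold higher in nitrogen starvation), RTA1 (at least 5.09-fold) and SPO16 (at least 3.08-fold). RTA1 and SPO16 lost their calls with normexp and median centring, and SPO16 with normexp and loess. Over the alternative settings the differences of YGR190C, RTA1 and SPO16 went down to 1.42, 0.49 and 0.16.

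**Figure D3:**
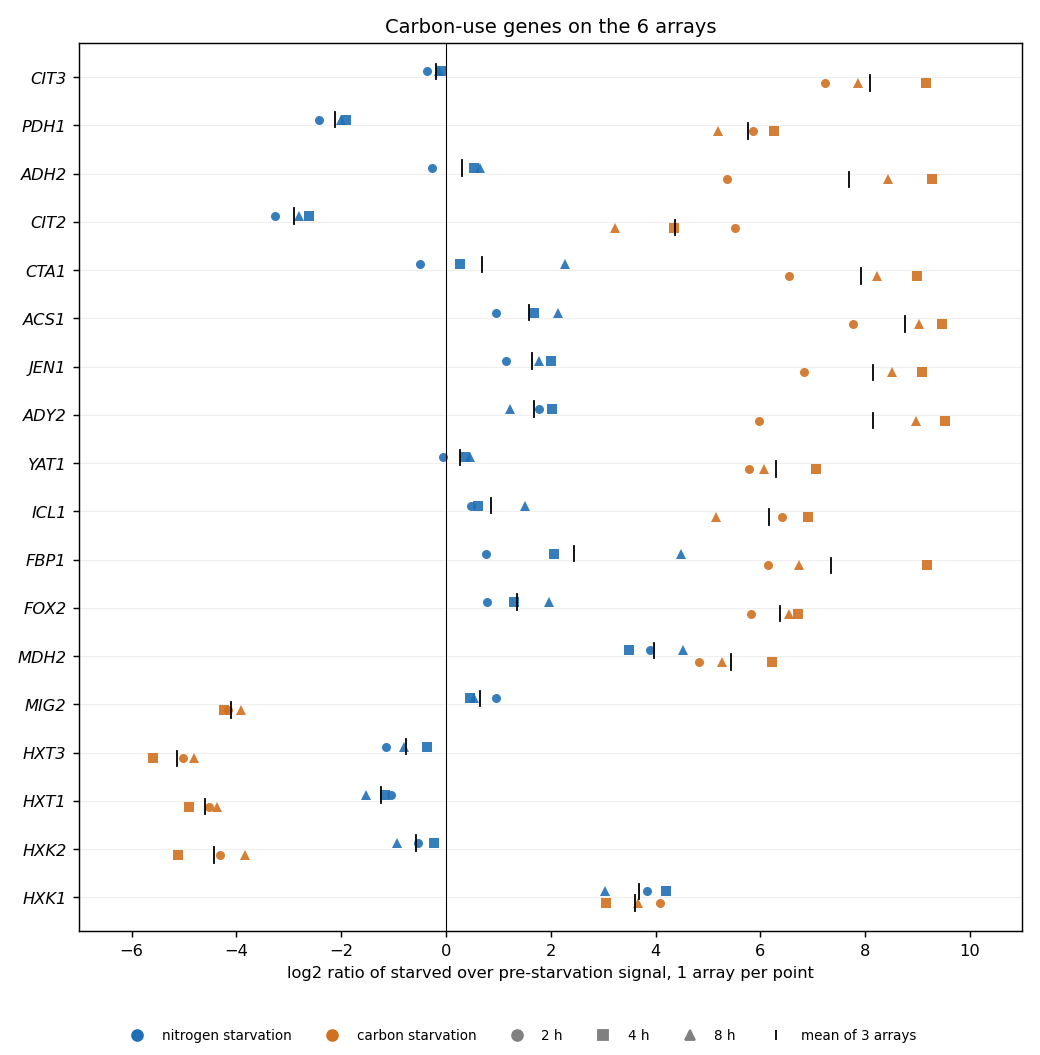
Log2 ratio of starved over pre-starvation signal (horizontal axis) of 18 carbon-use genes, 1 point per array; blue is nitrogen and orange carbon starvation, circles, squares and triangles are 2, 4 and 8 h, and black ticks are means of 3 arrays. From CIT3 to MDH2 the orange points lie to the right, from MIG2 to HXK2 the blue points lie to the right with orange far below 0, and HXK1 shows both groups raised and mixed.

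Some genes that serve growth on glucose, such as MIG2 and HXK2, were lowered in carbon starvation alone. MIG2, a repressor that glucose induces, had ratios of -4.17, -4.24 and -3.92 in carbon starvation and 0.95, 0.46 and 0.53 in nitrogen starvation (difference 4.75, SE 0.25, limma adjusted p = 8.69e-05), whereas MIG1 did not pass the test (0.71, 0.26 and 0.69 against 0.56, 0.50 and -0.01). HXK2, the main hexokinase on glucose, had -4.32, -5.12 and -3.83 against -0.53, -0.24 and -0.93 (difference 3.86, SE 0.38, limma adjusted p = 0.000708). Its counterpart HXK1 was raised in both starvations with overlapping groups (4.08, 3.06 and 3.66 against 3.83, 4.21 and 3.03). GLK1, glucokinase, was raised in both and higher in carbon starvation (-1.21, SE 0.28), but lost its call with equal totals, without the 8 h pair and without any single array but nitrogen starvation at 2 h.

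Of 18 hexose transporters and glucose sensors on the array, 6 were too dim to be tested. The 12 tested went both ways, 4 in each direction (33.3%, against 17.3% and 16.3% of all genes). Those of low affinity were far lower in carbon starvation: HXT3 had -5.02, -5.59 and -4.81 against -1.14, -0.37 and -0.80 (difference 4.37, SE 0.32, limma adjusted p = 0.00025), and HXT1 had -4.52, -4.91 and -4.37 against -1.06, -1.17 and -1.52 (difference 3.35, SE 0.27). SNF3, the sensor of low glucose, had the opposite order (3.60, 3.89 and 3.34 against 0.86, 1.19 and 0.99, difference -2.60, SE 0.24). HXT5, a transporter of non-growing cells, lies beside HXT1 and was high in both starvations (6.49, 8.78 and 8.00 against 5.44, 5.17 and 6.81), and its call (-1.95) was lost without the time block. HXT6 and HXT7 are near-identical and share signal, and their differences were -1.07 and -0.82, of which only that of HXT6 passed the test. HXT6 lost its call without the time block and with equal totals, where 2 genes of the list, in place of 4, were higher in carbon starvation and the median of the list turned from -0.24 to 0.06. Without the 8 h pair, 2 genes of the list were called in each direction.

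Of 17 genes of glycolysis 6 were higher in nitrogen and 1 in carbon starvation (35.3% and 5.88%, against 17.3% and 16.3% of all genes). The median difference was 1.01. The number higher in nitrogen starvation was 2 without the time block, 1 without the 4 h pair and 10 without the 2 h pair. Without single arrays it was 7 for carbon starvation at 8 h and 1 to 3 for each of the other 5, the lowest being nitrogen starvation at 4 h. CDC19, pyruvate kinase, had -2.49, -0.92 and -0.36 in nitrogen starvation and -3.69, -3.71 and -1.06 in carbon starvation (difference 1.57, SE 0.41), where both courses climb by 8 h and the groups overlap. Its call was lost without the block, and so was that of PDC1, pyruvate decarboxylase (difference 1.94, SE 0.35). PDC5 differed by 2.26 and the aldehyde dehydrogenases ALD5 and ALD6 by 2.43 and 2.39, and PDC5 and ALD6 lost their calls without carbon starvation at 4 h and without nitrogen starvation at 4 or 8 h. Against these, ADH2, the alcohol dehydrogenase that consumes ethanol, had 5.36, 9.27 and 8.43 in carbon starvation and -0.27, 0.53 and 0.65 in nitrogen starvation (difference -7.38, SE 0.54), on a spot saturated on 3 arrays, and ALD4, the mitochondrial aldehyde dehydrogenase, had 4.81, 6.68 and 6.86 against 2.84, 2.85 and 2.67 (difference -3.33).

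Of 16 TCA cycle genes tested 8 were higher in carbon starvation (50%, against 16.3% of all genes) and 1 in nitrogen starvation. The median difference was -1.16. After CIT3 the largest were CIT1, the main mitochondrial citrate synthase (3.33, 2.99 and 2.19 against 0.54, 0.80 and 0.17, difference -2.33, SE 0.26), and the succinate dehydrogenase subunit SDH2 (difference -2.09, SE 0.28). Of 36 nuclear genes of the respiratory chain 8 (22.2%, against 16.3% of all genes) were higher in carbon starvation, and 1, COX5B, in nitrogen starvation. COX5B encodes the form of a cytochrome oxidase subunit used at low oxygen, and it was raised in nitrogen starvation alone (2.45, 2.12 and 2.28 against 0.67, 0.13 and -0.65, difference 2.23, SE 0.30), while COX5A, its aerobic counterpart, chosen after its values were seen, had a difference of -0.82 that did not pass the test. The number of respiratory genes higher in carbon starvation ran from 1 without nitrogen starvation at 4 h, through 2, 4 and 5 without carbon starvation at 4 h, carbon starvation at 2 h and nitrogen starvation at 2 h, to 16 without carbon starvation at 8 h. It was 3 without the 4 h pair and 14 without the 8 h pair. Of 5 regulators of the HAP group, which activate respiratory genes, 0 were called by limma and 1 had an unadjusted p under 0.05. This was HAP4, with 1.96, 2.54 and 1.05 in carbon starvation and -0.54, 0.89 and 1.19 in nitrogen starvation, groups that overlap.

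Growth genes were low in both starvations and divided by class. The 133 genes tested for cytosolic ribosomal proteins had a median ratio of -2.95 in nitrogen and -3.54 in carbon starvation, and 24 of them (18.0%, against 17.3% of all genes) were called higher in nitrogen starvation and 0 in carbon starvation, with a median difference of 0.58. Both courses climbed with time, as in RPL24B (-2.63, -1.77 and -1.10 against -3.71, -3.82 and -1.86), so that the arrays of each starvation spread widely. Without the time block 1 of these genes was called, without the 4 h pair 3, with equal totals 58, and with normexp and loess 10 in this direction and 4 in the other. Without single arrays, and with no block, the number was 7 for carbon starvation at 8 h and 1 for each of the others. Many ribosomal protein genes come as near-identical pairs that can share signal on an array. The 105 ribosome assembly factors had median ratios of -3.60 in nitrogen and -3.55 in carbon starvation. Of these, 1 was called higher in nitrogen and 4 in carbon starvation (0.952% and 3.81%, against 17.3% and 16.3% of all genes). The sign of their small median difference (-0.04) turned with equal totals. That median was -1.09 at 2 h, 0.74 at 4 h and 0.21 at 8 h. Without the 2 h pair 27 assembly factors were called higher in nitrogen starvation, and 10 without nitrogen starvation at 2 h. Of the 8 RNA polymerase I genes 0 were called by limma and 0 had an unadjusted p under 0.05, while 2 were called higher in nitrogen starvation without the 2 h pair.

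Aminoacyl-tRNA synthetases load amino acids for translation. Of 19 tested, 14 were higher in nitrogen starvation (73.7%, against 17.3% of all genes) and 0 in carbon starvation. Median ratios were -1.98 in nitrogen and -3.32 in carbon starvation. FRS1, a subunit of the phenylalanine enzyme, had -2.36, -2.10 and -2.57 against -4.12, -5.01 and -4.26 (difference 2.12, SE 0.31, limma adjusted p = 0.00299), and ALA1 had -1.08, -1.27 and -1.12 against -2.86, -2.91 and -2.71 (difference 1.67, SE 0.23). Without nitrogen starvation at 4 h 6 synthetases were called, without the 4 h pair 9, and without carbon starvation at 2 h or at 4 h 8. Over all genes, 986 were higher in nitrogen starvation in the main fit. That number was 455 without nitrogen starvation at 4 h and 651 without the 4 h pair. It was 691 and 642 without carbon starvation at 2 h and at 4 h. In the mitochondrial ribosome 12 of 69 genes were higher in carbon starvation, a share of 17.4% near the 16.3% of all genes, and 0 in nitrogen starvation, with differences of -0.75 to -1.38 in those called. The number was 4 without the 4 h pair, 5 without the 2 h pair, 6 with equal totals, and 5 or 6 without any single array but carbon starvation at 8 h.

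Amino acid synthesis lists held more genes higher in nitrogen than in carbon starvation, apart from the sulfur list. Of 10 genes of arginine synthesis 6 were higher in nitrogen and 1 in carbon starvation (60% and 10%, against 17.3% and 16.3% of all genes). ARG1, argininosuccinate synthetase, had 2.80, 1.71 and 1.00 in nitrogen starvation and -3.88, -2.94 and -2.87 in carbon starvation (difference 5.07, SE 0.50, limma adjusted p = 0.000707), whereas ARG3, the step before it, had -2.65, -1.44 and -1.46 against -1.21, -1.06 and -1.74 and did not pass the test. ARG2 was the member higher in carbon starvation (-1.13, SE 0.25), and it lost its call without the 8 h pair and without nitrogen starvation at 4 h. Of 15 genes of lysine and histidine synthesis 8 were higher in nitrogen starvation (53.3%, against 17.3% of all genes). They were led by LYS9 (-0.45, -1.19 and -1.15 against -4.37, -5.11 and -4.07, difference 3.59, SE 0.29) and LYS1 (2.25, SE 0.27).

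Of 12 branched-chain genes 4 were higher in nitrogen and 2 in carbon starvation (33.3% and 16.7%, against 17.3% and 16.3% of all genes). The median difference of the list was 0.63, and LEU4, the main alpha-isopropylmalate synthase, was higher in carbon starvation. It had 3.01, 2.33 and 1.97 in carbon starvation and -1.90, -1.18 and -0.89 in nitrogen starvation (difference -3.76, SE 0.39, limma adjusted p = 0.000841), while LEU1, the next enzyme, was lowered in both and more so in carbon starvation (difference 1.38, SE 0.24). BAT1 and BAT2, the mitochondrial and cytosolic transaminases, also went opposite ways, by 1.25 and -1.70. Both lost their calls without carbon starvation at 4 h and without nitrogen starvation at 4 or 8 h. The aromatic transaminases ARO8 and ARO9 also went opposite ways. ARO8 was lowered in carbon starvation alone, to between -3.31 and -2.75 (difference 2.58, SE 0.36). ARO9 had 3.30, 3.23 and 4.02 in nitrogen and 5.37, 6.52 and 5.71 in carbon starvation (difference -2.35, SE 0.34). The reference signal of ARO9 was well above background on 1 of 6 arrays.

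Sulfur genes were mixed, with 3 of 24 higher in nitrogen and 5 in carbon starvation (12.5% and 20.8%, against 17.3% and 16.3% of all genes). SUL1, a sulfate permease, was lowered in nitrogen starvation alone (-2.60, -3.35 and -4.40 against -0.72, 0.08 and -0.21, difference -3.17, SE 0.43, limma adjusted p = 0.00211), and SAM2, an S-adenosylmethionine synthetase, was higher there (difference 2.65, SE 0.46), a call lost without nitrogen starvation at 4 h. With a pair or an array left out, 1 to 5 sulfur genes were higher in nitrogen and 1 to 6 in carbon starvation, the fewest without nitrogen starvation at 4 h, and the small median difference of the list (-0.11) turned to 0.19 with equal totals. Of 24 genes for purines and pyrimidines, 1 (URA10, -1.78) was called, higher in carbon starvation (4.17%, against 16.3% of all genes). The remainder were low in both starvations with a list median of 0.46. With equal totals 5 of them were higher in nitrogen starvation, and 4 were without the 2 h pair. URA10 lost its call without carbon or nitrogen starvation at 4 h.

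**Figure D4:**
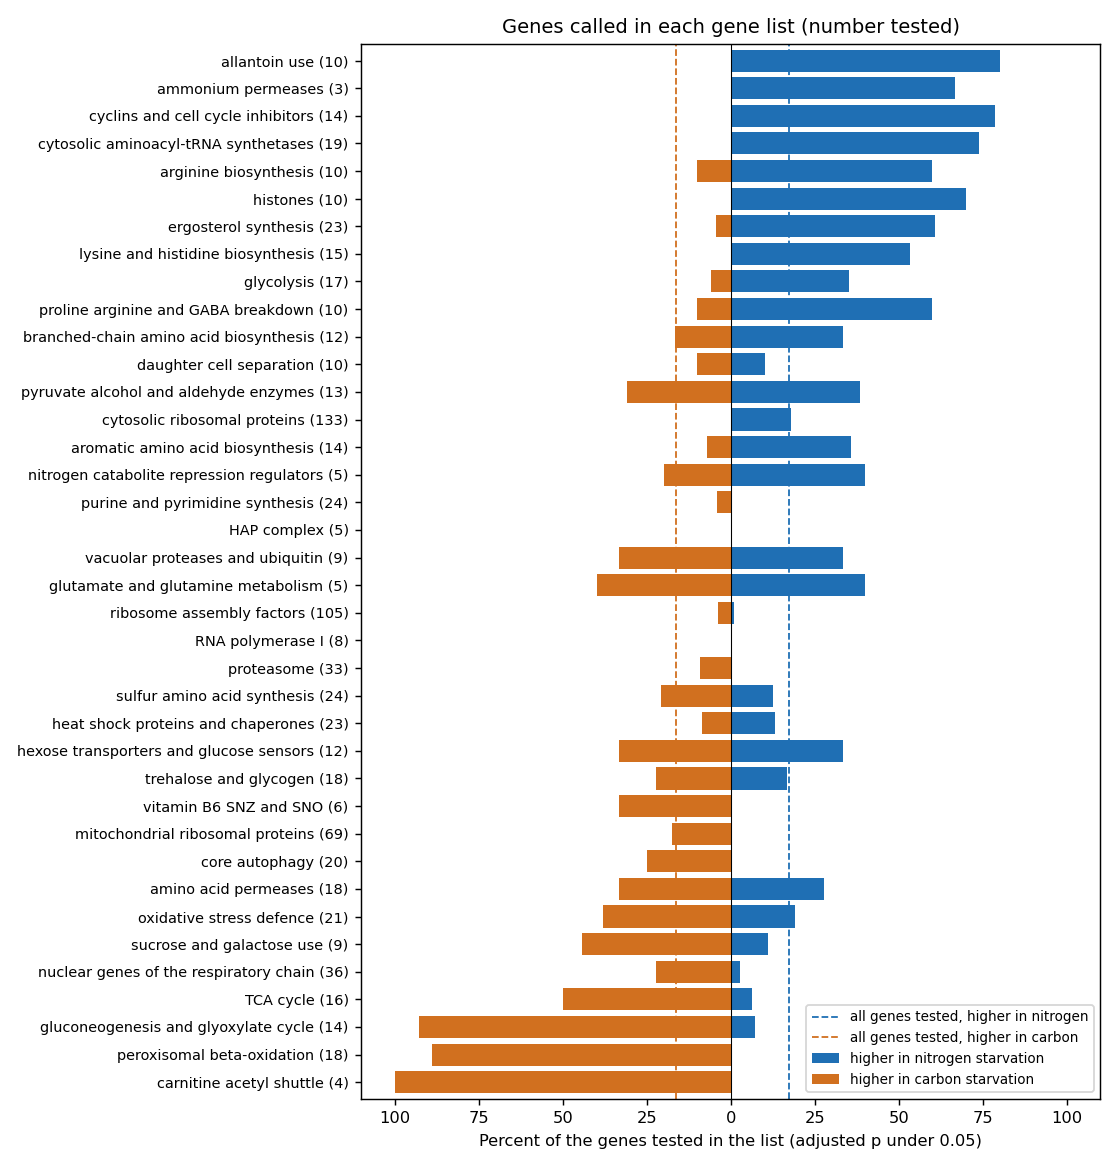
Percent of the genes tested in each gene list that were called higher in nitrogen starvation (blue, to the right) or in carbon starvation (orange, to the left), with the number tested in parentheses and lists ordered by median difference; dashed lines mark 17.3% and 16.3%, the shares in all 5689 genes. Allantoin use (80.0%) is at the top and the carnitine shuttle (4 of 4), beta-oxidation (88.9%) and gluconeogenesis (92.9%) at the bottom.

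Membrane sterols and the cell cycle also divided the starvations. Of 23 genes of ergosterol synthesis 14 were higher in nitrogen starvation and 1 in carbon starvation (60.9% and 4.35%, against 17.3% and 16.3% of all genes). The median difference was 1.17. ERG5, a late step, had 0.91, 1.36 and 1.44 in nitrogen starvation and -2.97, -3.36 and -2.81 in carbon starvation (difference 4.28, SE 0.26, limma adjusted p = 0.000129). ERG25 (0.08, 0.94 and 1.75 against -3.15, -3.45 and -2.28) and ERG3 (-0.20, 1.04 and 1.53 against -2.87, -2.82 and -1.92) differed by 3.88 and 3.33. HMG1, a main control point of the pathway, was the 1 member higher in carbon starvation (-0.87, SE 0.26), a call lost with equal totals and without any of the 3 time pairs. The 5 members with the largest differences, ERG5, ERG25, ERG3, ERG11 and ERG26, act after lanosterol is formed. ERG24, which also acts there, and ERG10, ERG20, ERG9, ERG7 and IDI1, which act before, did not pass the test. These are selected members. The 14 genes higher in nitrogen starvation were not sorted by step, and a split between early and late steps was not tested.

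Of 14 cyclins and cell cycle inhibitors 11 were higher in nitrogen starvation (78.6%, against 17.3% of all genes) and 0 in carbon starvation. The median difference was 1.80. PCL1, a cyclin of the G1 phase, had 0.86, 1.58 and 1.58 in nitrogen starvation and -3.98, -3.11 and -3.09 in carbon starvation (difference 4.73, SE 0.23, limma adjusted p = 8.18e-05). CLN1, another G1 cyclin, had -0.07, 0.60 and -0.02 against -2.69, -2.38 and -2.62. The mitotic cyclin CLB2 had 0.33, -0.36 and -1.68 against -3.32, -3.56 and -4.44 (difference 3.21, SE 0.27). In nitrogen starvation PCL1 was above the pre-starvation level and CLN1 near it, and CLB2 was lower at 8 h than at 2 h in both starvations. SIC1, the inhibitor of B-type cyclin kinase, had similar ratios in both starvations (0.76, 0.50 and 0.60 against 1.10, 0.79 and 0.69). CLN3 and CLB3 did not pass the test. Without nitrogen starvation at 4 h, 7 of the list were called.

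Histones, made in S phase, had the same direction: 7 of 10 were higher in nitrogen starvation (70%, against 17.3% of all genes) and 0 in carbon starvation. HTB2 led them (0.16, -0.04 and -0.98 against -2.21, -2.64 and -2.35, difference 2.11, SE 0.30). The number of histones called was 3 without the 4 h pair or without nitrogen starvation at 4 h, and 4 without carbon starvation at 4 h. Of the MATa genes, 5 of 7 were higher in nitrogen starvation (71.4%, against 17.3% of all genes). Among them were MFA1 (0.57, 0.03 and -0.88 against -1.85, -2.50 and -2.65, difference 2.24, SE 0.26) and the receptor STE2 (2.34, SE 0.38). The number of MATa genes called was 3 without the time block, and 3 without carbon starvation at 8 h or nitrogen starvation at 2 h. It was 2 without carbon starvation at 4 h and 1 without nitrogen starvation at 4 h. STE2 lost its call in the last 2 cases.

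Stress and reserve genes went in no single direction. Of 23 heat shock genes 3 were higher in nitrogen and 2 in carbon starvation (13% and 8.7%, against 17.3% and 16.3% of all genes). HSP104, the disaggregase, had 4.03, 4.75 and 5.26 in nitrogen and 5.09, 4.94 and 5.01 in carbon starvation and did not pass the test. SSA1 and SSA2, Hsp70 chaperones of growing cells, were higher in nitrogen starvation by 1.70 and 2.23, and HSP12 was higher in carbon starvation by -2.16, a call lost without the 4 h pair, without carbon starvation at 2 or 4 h and without nitrogen starvation at 4 h. SSA1 was raised in nitrogen starvation alone (1.10, 1.79 and 1.83 against 0.00, -0.36 and -0.02). Without the 2 h pair 9 heat shock genes were called higher in nitrogen starvation and without nitrogen starvation at 2 h 6, and the median difference of the list turned from -0.11 to 0.19 with equal totals. Of 18 trehalose and glycogen genes 3 were higher in nitrogen and 4 in carbon starvation (16.7% and 22.2%, against 17.3% and 16.3% of all genes). The initiator of glycogen synthesis GLG1 and the synthase GSY1 were higher in carbon starvation by -2.01 and -1.95, whereas GPH1, glycogen phosphorylase, was higher in nitrogen starvation (4.52, 4.02 and 3.61 against 2.32, 3.11 and 2.37, difference 1.45, SE 0.31), a call lost without carbon starvation at 2 or 8 h and without nitrogen starvation at 4 h. The trehalose synthase genes TPS1, TPS2, TPS3 and TSL1 did not pass the test.

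Of 21 genes of oxidative stress defence 4 were higher in nitrogen and 8 in carbon starvation (19% and 38.1%, against 17.3% and 16.3% of all genes). The cytosolic thioredoxin reductase TRR1 had -1.01, -1.19 and -1.35 in nitrogen and -3.16, -3.64 and -3.59 in carbon starvation (difference 2.28, SE 0.24, limma adjusted p = 0.000807). GPX1, a glutathione peroxidase, had 2.35, 4.13 and 4.57 in nitrogen and 6.38, 5.74 and 6.28 in carbon starvation (difference -2.45, SE 0.48). Its call was lost without carbon starvation at 2 or 8 h, and its reference signal was well above background on 0 of 6 arrays. Without the 4 h pair 1 of these genes was higher in nitrogen and 5 in carbon starvation, and without nitrogen starvation at 4 h the numbers were 1 and 4. SNZ1 and SNO1, a vitamin B6 synthesis pair that share a promoter region, were both higher in carbon starvation by -2.44, and SNZ1 lost its call without carbon starvation at 4 or 8 h and without nitrogen starvation at 4 h. Their relatives SNZ2, SNZ3, SNO2 and SNO3 did not pass the test.

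Of 33 proteasome genes 3 were higher in carbon starvation, a share of 9.09% below the 16.3% of all genes, and 0 in nitrogen starvation. The differences of those called were -0.76 to -1.14, and 0 were called without the 4 h pair. Of 9 genes for sucrose and galactose use, 4 were higher in carbon starvation, where 16.3% of all genes were, and 1, MIG2, in nitrogen starvation. Those higher in carbon starvation included GAL3 (-2.18) and GAL4 (-1.93), which lost their calls with normexp and loess. The reference signal of both was well above background on 0 of 6 arrays, and the red signal of GAL4 on 1 of 3 nitrogen arrays. Of 10 genes of daughter cell separation DSE2 (1.27) and DSE3 (-1.04) were called, in opposite directions (10% each way, against 17.3% and 16.3% of all genes). Both lost their calls without the time block. GCN4, the activator of amino acid synthesis, had -1.34, -0.56 and 0.57 in nitrogen starvation and -0.45, 0.31 and 1.07 in carbon starvation. Its ratio was higher at 8 h than at 2 h in both, the groups overlap, and its call (-0.75, limma adjusted p = 0.049) was lost in 14 of 20 alternative settings.

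The size of the difference changed with time in some lists. The median for gluconeogenesis was -3.87 at 2 h, -5.21 at 4 h and -2.34 at 8 h, and for beta-oxidation -3.45, -4.27 and -2.89. Several of these genes climbed in nitrogen starvation at 8 h, among them SFC1, a mitochondrial succinate carrier (0.79, 2.88 and 5.10), IDP2, a cytosolic isocitrate dehydrogenase (1.34, 2.59 and 4.05), and FBP1. For allantoin use the median stayed at 4.68, 4.73 and 4.40, for the respiratory chain it went from -1.22 at 2 h to -0.10 at 8 h, and over all genes tested it was -0.13 at 2 h and 0.00 at 4 and 8 h. With 1 array at each time and 1 residual degree of freedom, a linear trend of the difference over time passed limma's threshold in 1 of 5689 genes, with 332 at an unadjusted p under 0.05.

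**Figure D5:**
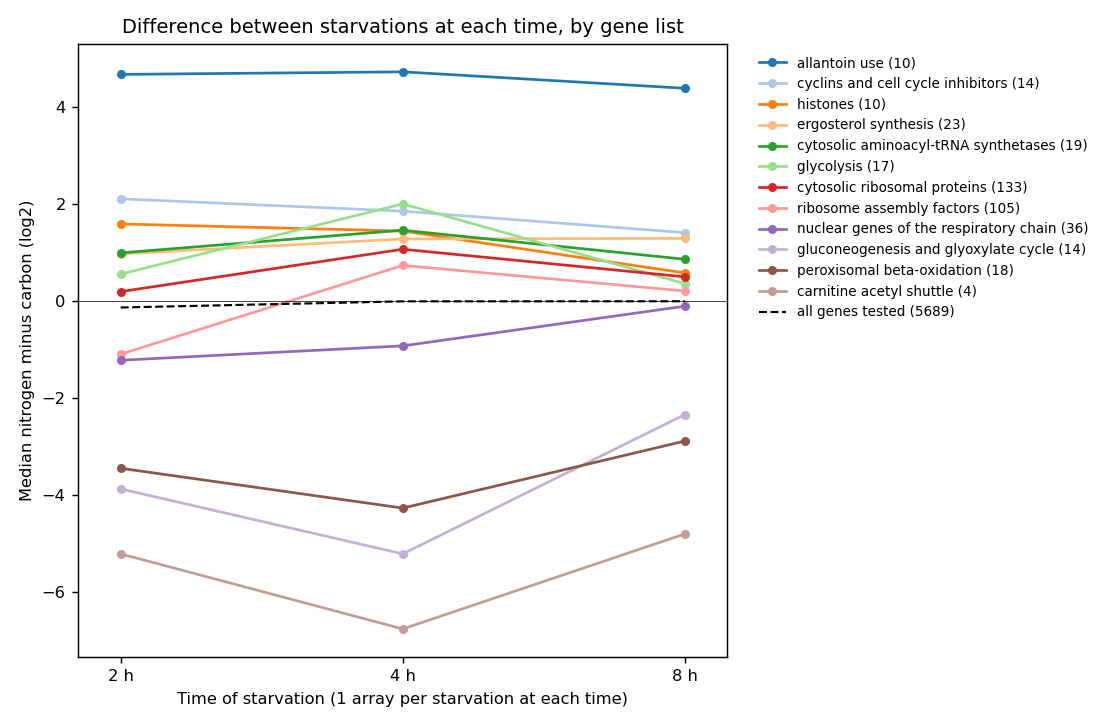
Median difference between starvations, nitrogen minus carbon on the log2 scale (vertical axis), at 2, 4 and 8 h (horizontal axis) for 12 gene lists, with the number of genes tested in parentheses, and for all genes tested (dashed). Allantoin use stays between 4.40 and 4.73, the 3 lists of gluconeogenesis, beta-oxidation and the carnitine shuttle are lowest at 4 h, and ribosome assembly factors go from -1.09 at 2 h to 0.74 at 4 h.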

How the data were processed

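The deposited scanner files of 6 2-colour Agilent arrays were used (Feature Extraction A.7.5.1). Per the file headers, the authors' red and green processed intensity values are background-subtracted, spatially detrended and LOWESS dye-normalized, with a surrogate value for signals near background. Background flags, 0 or 1, mean pixel intensity and local background intensity come from the same deposited files. The deposited log10 ratios and the authors' log2 series table served as checks and alternatives (agreement within 5e-04). No sample column of the series table was left unused (0).

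The log2 of red over green was taken per spot, control and outlier spots were left out, spots of a probe were averaged, and each array was centred on its median. Of 6256 probes, 5689 were tested, those with values on all 6 arrays and a red signal well above background on all 3 arrays of at least 1 starvation, and 567 were not. Names came from the R64 annotation (5756 reading frames matched). The model had starvation and time as terms (limma 3.58.1, R 4.3.3, empirical Bayes, two-sided, Benjamini-Hochberg over all genes tested). It was tested on simulated data. Figures were drawn with matplotlib 3.10.9 in Python 3.11.15. The number of arrays, 3 per starvation, limits the precision. The 6 arrays lie on 6 different slides of 1 scan date, so slide could not be tested as a batch.

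Genes were named by rule: the 10 largest differences in each direction with both channels above background on all 6 arrays, the 5 largest bounds in each direction, up to 3 called members per list and direction, every called or uncalled member of lists of 6 genes or fewer, the genes the study names, and mating type genes. The comparison, lists and rule were chosen with earlier results of these data known. Arrays were paired by labelled time. The deviations of the paired arrays from their starvation's mean correlated, across genes, with r of 0.444 at 2 h, -0.323 at 4 h and 0.441 at 8 h. Alternatives were other scalings, normexp with an offset of 50, the red channel alone, other filters, no block, a trended robust variance, class thresholds of 0.58 and 1.5, and each pair or array left out. The linear trend over time was added after seeing the data. The result for 1 named gene is not reported here.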

Additional observations from a re-analysis of the deposited data

Results flagged for a closer look

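In 13 called genes the starvations moved the ratio in opposite directions at all 3 times. Each starvation's direction is relative to the pre-starvation reference, and the difference between them was tested with limma. Of these, 8 were raised in nitrogen and lowered in carbon starvation, with differences of 7.58 in DAL4, 5.71 in DAL5, 4.46 in YGK3, 4.43 in DUR1,2, 4.36 in DAL80, 3.87 in GAP1, 3.27 in VHT1 and 3.19 in YKR033C. The other 5 were lowered in nitrogen and raised in carbon starvation, with differences of -5.29 in PHO89, -6.19 in ATO3, -7.26 in CIT2, -7.81 in YIG1 and -7.88 in PDH1. YKR033C lies opposite DAL80 and was not well above background in carbon starvation. PHO89 was well above background on 2 of 3 nitrogen arrays and YGK3 on 2 of 3 carbon arrays.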

How the results depend on the processing

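With equal red and green totals, 569 genes were higher in carbon starvation in place of 925. The nutrient-specific classes (genes of 1 starvation alone) held 331 genes with normexp and median centring, in place of 519, and with class thresholds of 0.58 and 1.5 their number was 380 and 500. With 1 time pair or 1 array left out, 807 to 1669 genes differed, 455 to 914 were higher in nitrogen starvation, 352 to 755 were higher in carbon starvation and 360 to 679 belonged to these nutrient-specific classes. The lowest counts of calls were those without nitrogen starvation at 4 h (807, of which 455 were higher in nitrogen and 352 in carbon starvation), followed by those without the 4 h pair (1258, 651 and 607) and without carbon starvation at 4 h (1261, 642 and 619).

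Without the time pairing as a replicate block, 1768 genes differed, 896 higher in nitrogen and 872 in carbon starvation, and 1655 of these were called in the same direction with the block. The samples were paired by labelled time, and same-time arrays deviated together at 2 h and 8 h (r of 0.444 and 0.441) but not at 4 h (r of -0.323). Of 168 named genes called, 95 kept their call in each of the 18 to 20 alternatives in which they were tested and 73 lost it in 1 or more, 22 of them without the block. No named call was reversed in the alternatives run, while 19 of all 1911 called genes took the opposite sign, uncalled, with normexp and median centring. With 1 array per starvation and time, the change of a difference with time is measured with 1 residual degree of freedom. Genes dim in 1 starvation have only a lower bound of the fold, and saturated spots (2 to 17 red spots per array) understate it. Such a bound holds for the main processing, and alternative settings gave smaller differences in the named genes of this kind.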

Other observations

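The genes in this section were chosen after their values were seen. Biotin genes were higher in nitrogen starvation: BIO3, an enzyme of biotin synthesis, had 2.68, 3.57 and 4.13 in nitrogen starvation and -0.32, 0.12 and 0.11 in carbon starvation (difference 3.49, SE 0.28, limma adjusted p = 0.000364), and BIO2, BIO4, BIO5 and the biotin permease VHT1 differed by 2.94, 2.76, 1.95 and 3.27. BPL1, which attaches biotin to enzymes, did not pass the test (0.60). INO1, which makes inositol phosphate, had 3.70, 3.61 and 2.91 in nitrogen starvation and 0.32, 0.30 and 0.33 in carbon starvation (difference 3.09, SE 0.27). The choline transporter HNM1 (2.63) and the phospholipid enzymes CHO2 (1.87), PSD1 (1.56) and CHO1 (1.07) were also higher in nitrogen starvation, while OPI3, INO2 and OPI1 did not pass the test (0.11, -0.08 and -0.01).

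Several cell wall genes were higher in nitrogen starvation, and of these MNN1 and EXG1 were lowered in carbon starvation alone. CIS3, a wall mannoprotein, had 0.02, 0.85 and 1.28 against -3.67, -3.10 and -3.69 (difference 4.20, SE 0.31, limma adjusted p = 0.00025), and MNN1, SCW10, EXG1, CWP2 and GAS1 differed by 3.95, 3.62, 3.56, 2.88 and 2.40. TIP1, another mannoprotein, was higher in carbon starvation (-1.04, 0.18 and -0.73 against 2.44, 3.86 and 4.27). PMA1, the proton pump of the plasma membrane, had -0.89, -0.86 and -1.38 in nitrogen starvation and -4.02, -4.64 and -3.96 in carbon starvation (difference 3.16, SE 0.29).

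Paralogs with a division of labour went opposite ways in a further case: ACS2, the acetyl-CoA synthetase of glucose-grown cells, had 0.35, 0.17 and 0.09 in nitrogen starvation and -1.84, -1.93 and -3.56 in carbon starvation (difference 2.64), opposite to ACS1. FAT3, linked to fatty acid uptake, had 6.65, 9.04 and 8.22 in carbon starvation and 0.38, 0.65 and 0.22 in nitrogen starvation (difference -7.55, SE 0.42), with the red signal well above background on 2 of 3 nitrogen arrays and the reference signal on 3 of 6 arrays, so that its size is uncertain. GUT1, glycerol kinase, had 3.70, 4.47 and 4.48 against -0.12, -0.04 and -0.20 (difference -4.34, SE 0.27). DLD3, a cytosolic lactate dehydrogenase, had the largest difference of the 11 genes lowered in nitrogen starvation alone, with -4.16, -3.53 and -3.47 in nitrogen starvation and 0.39, 0.40 and -0.84 in carbon starvation (difference -3.70, SE 0.38).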
